A study of Mus musculus with 6 samples.

Results

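The AP-1 and immediate early genes described here were Fos, Fosb, Fosl2, Jun, Junb, Jund, Egr1, Ier2, Dusp1 and Zfp36. They were taken by gene symbol from the count table, which held all 10 of them among 49997 listed genes, and 9 of the 10 passed the filter on low counts that left 7792 genes for testing. RNA was measured by RNA-seq in small pre-B cells, sorted from C57BL/6 mice aged 6 to 12 weeks. Small pre-B cells are the bone marrow precursors that rearrange their immunoglobulin light chain genes. The comparison was between wild-type (WT) mice and mice of the ΔrsCBE genotype, with 3 libraries each. By convention Δ denotes a deletion. The sample labels write the genotype as rsCBE, and they state neither the deleted interval nor how many animals or founder lines the libraries came from, so the p-values measure the spread between these libraries.

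AP-1 is a pair of proteins joined by a leucine zipper, usually one of the Fos family with one of the Jun family, and it binds DNA as a transcription factor. Immediate early genes are transcribed within minutes of a stimulus from factors that are already present, and most of their transcripts are short-lived. In B-cell precursors they respond to signals from the pre-B-cell receptor and from cytokines, and in any tissue they also respond to cell isolation. Fos, Fosb, Jun, Junb, Egr1, Ier2, Dusp1 and Zfp36 were treated as the fast members. Jund and Fosl2 were set beside them as slower members, because Jund is expressed in many resting cells and Fosl2 accumulates later than Fos.

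The DNA in front of 3 AP-1 subunit genes is shown as an example. These genes share a rapid response and each had all ΔrsCBE libraries above all WT libraries. The same holds for Fosb, which is not shown. The sequences are the 250 bases before the RefSeq start on GRCm38.p6, and they lie at chr12:85473640-85473889 on the plus strand for Fos, chr4:95052223-95052472 on the minus strand for Jun and chr8:84978749-84978998 on the minus strand for Junb. Capitals mark TGACNTCA and TGACG, the core of sites for CREB and ATF factors, which were searched on both strands, and TATAAA, the TATA box, which was searched on the strand of the gene.
Fos: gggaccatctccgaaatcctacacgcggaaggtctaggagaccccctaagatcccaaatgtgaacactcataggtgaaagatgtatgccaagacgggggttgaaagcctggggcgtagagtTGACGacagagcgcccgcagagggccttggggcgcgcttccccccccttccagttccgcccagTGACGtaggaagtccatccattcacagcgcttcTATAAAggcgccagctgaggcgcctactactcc
Jun: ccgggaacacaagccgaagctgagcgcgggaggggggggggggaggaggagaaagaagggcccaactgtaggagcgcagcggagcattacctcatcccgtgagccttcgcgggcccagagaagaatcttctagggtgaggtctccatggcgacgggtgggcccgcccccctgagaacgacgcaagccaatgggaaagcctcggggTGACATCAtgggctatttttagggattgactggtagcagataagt
Junb: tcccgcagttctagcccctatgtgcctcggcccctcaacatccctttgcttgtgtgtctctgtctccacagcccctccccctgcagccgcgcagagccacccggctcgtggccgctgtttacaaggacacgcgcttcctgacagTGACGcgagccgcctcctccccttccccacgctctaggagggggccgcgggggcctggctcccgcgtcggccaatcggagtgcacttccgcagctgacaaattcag

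Promoter sequences could be matched for 8 of the 10 genes, all but Egr1 and Ier2. TGACG occurred in 4 of these 8 windows and in 17.8% of 32851 promoter windows of the same length, and TGACNTCA, which contains TGACG only where N is G, in 2 of 8 and 7.49%. Dusp1 holds TGACGTCA, and Jun holds the TGACATCA shown above. The CArG box, the site of serum response factor, was found in 1 of 8, Zfp36, and in 1.47% of all windows. Sites beyond the 250 bases before each start were not searched for any motif, nor were the promoters of Egr1 and Ier2. TGANTCA, the classical AP-1 site, was in 0 of 8 and 6.75%, which says only that these letters are not in these windows. GGGCGG, a GC box, was in 6 of 8 and 32.7%, and GCGNGGGCG, the type of site that Egr1 binds, in 3 of 8 and 4.7%, both searched on both strands and able to overlap each other.

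The transcripts' 3′ ends were examined because AU-rich elements there mark messages for rapid decay, the process that Zfp36 itself carries out. TTATTTATT, a nonamer at which Zfp36 is known to bind, was found in the 3′ untranslated region of 4 of the 10 members (GENCODE M21 transcripts), against 7.56% of 20917 protein-coding genes. Each site is printed with its flanks, with the nonamer in capitals.
Fos: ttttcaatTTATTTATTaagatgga
Dusp1, first site: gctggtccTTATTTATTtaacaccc
Dusp1, second site: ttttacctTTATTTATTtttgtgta
Zfp36: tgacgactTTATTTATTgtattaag
Fosl2: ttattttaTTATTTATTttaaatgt
The slower Fosl2 thus holds the nonamer, and the fast members Fosb, Jun, Junb, Egr1 and Ier2 do not. At least 3 copies of the shorter ATTTA, which lies inside the nonamer, were present in 5 of the 10 members and in 35.2% of all genes.

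Total counts per library ranged from 428106 to 1300805, so 3 counts correspond to between 2.38 and 7.36 CPM (counts of a gene scaled by TMM to a common total over the tested genes). Of 14 small pre-B cell markers all were tested, and their summed level was 14222 to 16466 CPM in WT and 15333 to 15921 CPM in ΔrsCBE. T and NK cell markers were at 0 in every library for 9 of 11 genes, and erythroid and platelet markers for 8 of 9. Mature B and plasma cell markers, among them Cd22 and Ms4a1, summed to 398 to 488 in WT and 409 to 460 CPM in ΔrsCBE. In the same order, stromal and endothelial markers, mostly Pecam1, summed to 299 to 338 and 318 to 349 CPM. Myeloid markers, mostly Itgam, summed to 57.8 to 85.8 and 64.2 to 72.0 CPM. Pro-B and large pre-B cell markers summed to 4.87 to 12.3 and 3.10 to 10.9 CPM. ΔrsCBE replicates 2 and 3 carried Xist transcripts and no Y-linked counts, while ΔrsCBE replicate 1 and all WT libraries showed the Y-linked pattern. The labels do not give the sex, so within the Xist pattern there is no WT library to compare with.

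The comparison showed higher AP-1 transcripts in ΔrsCBE pre-B cells. Fos rose 2.03-fold, Jun 1.74-fold and Jund 1.48-fold, and these were the 3 of 9 tested members past the threshold (edgeR's quasi-likelihood test, Benjamini-Hochberg adjusted p under 0.05). Among all tested genes 1.69% passed in either direction, 0.205% as higher and 1.49% as lower in ΔrsCBE. At an unadjusted p under 0.05, 6 of the 9 members were higher, against 4.22% of all tested genes as higher and 10.2% in either direction. All 9 had log2 fold changes above 0, against 51.8% of all tested genes. The median log2 fold change of the 9 members was 0.70, against 0.01 for all tested genes. The members were chosen with results of these data known, so these counts and medians describe them and are no independent evidence of a direction. In bulk RNA, more cells with these transcripts and more of them per cell cannot be told apart.

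**Figure D1:**
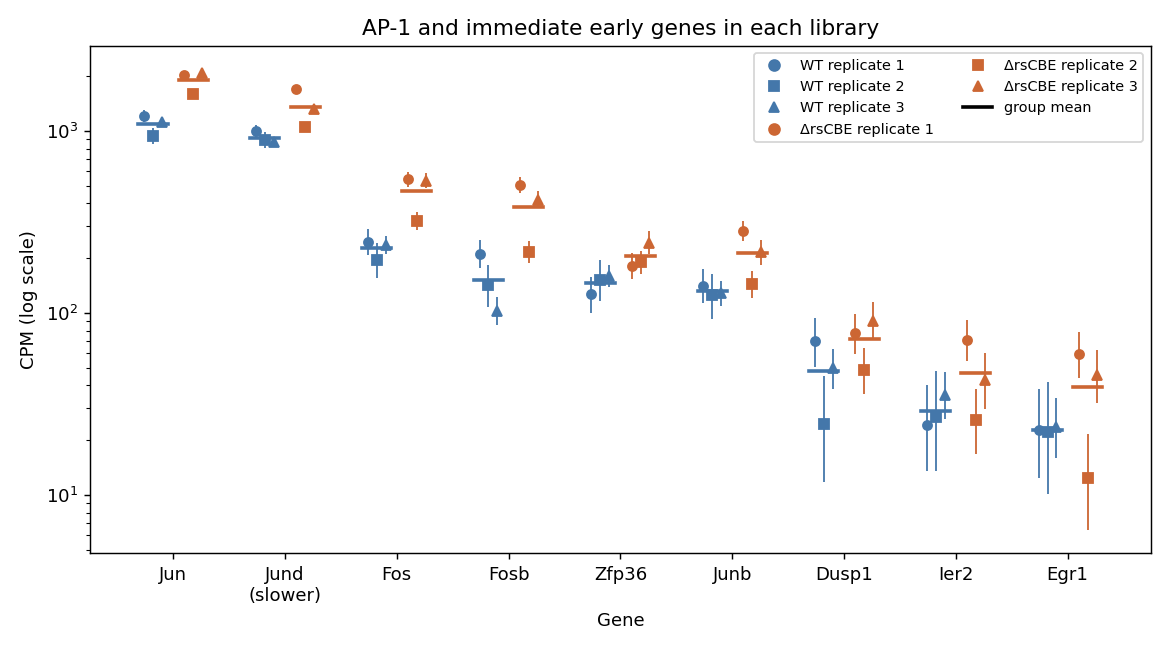
CPM on a log scale for the 9 tested members in each of the 6 libraries, with WT in blue and ΔrsCBE in orange, 1 symbol per replicate, bars for the exact Poisson 95% interval of each count and a line at each group mean. Jun, Jund, Fos, Fosb, Zfp36 and Junb do not overlap between the genotypes, while Dusp1, Ier2 and Egr1 do.

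Among the partners of the Fos family, Fos (chromosome 12, 85473890 to 85477273, plus strand, GENCODE M21 on GRCm38) is the prototype of the rapid response. In WT replicates 1 to 3 its level was 247, 196 and 237 CPM, and in ΔrsCBE replicates 1 to 3, in that order, 545, 320 and 534 CPM. Every ΔrsCBE library lay above every WT library, and ΔrsCBE replicate 2 was the lowest of its group. Its log2 difference, ΔrsCBE minus WT as in all that follow, was 1.02 (SE 0.17, edgeR adjusted p = 0.0029), and the call held in each of the 15 other fits.

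Fosb (chromosome 7, 19302696 to 19310051, minus strand) encodes a close relative of Fos that is induced alongside it. Its levels were 211, 142 and 103 CPM in WT and 506, 217 and 421 CPM in ΔrsCBE. The groups did not overlap, but ΔrsCBE replicate 2 was only just above WT replicate 1, and the exact Poisson 95% intervals of these 2 libraries, 189 to 248 CPM and 176 to 250 CPM, overlapped. Its log2 fold change of 1.36 was the highest of the members (SE 0.47), with a 95% interval from 0.11 to 2.61, and it did not pass (edgeR adjusted p = 0.432). Without ΔrsCBE replicate 2 the log2 fold change was 1.66 and the gene passed (edgeR adjusted p = 0.00096).

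Fosl2 (chromosome 5, 32135801 to 32157842, plus strand), the Fos relative known for a later and longer response, was barely detected. It had 0 counts in 5 libraries and 3 counts in ΔrsCBE replicate 3, or 3.79 CPM (exact Poisson 95% interval 0.781 to 11.1 CPM). Differences in Fosl2 were therefore not detectable at this depth, and no fold change is given. In WT replicate 2, the shallowest library, the limit of 3 counts stands at 7.36 CPM and the exact Poisson 95% upper bound of a count of 0 at 9.05 CPM. Fosl1, the remaining member of the Fos family, is listed at 0 in all libraries.

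Jun (chromosome 4, 95049034 to 95052222, minus strand), the main partner of the Fos proteins, had the most counts of all the members. It stood at 1214, 944 and 1118 CPM in WT and at 2043, 1595 and 2092 CPM in ΔrsCBE. The lowest ΔrsCBE library was well above the highest WT library. The log2 difference of 0.80 (SE 0.11, edgeR adjusted p = 0.000106) passed in each of the 15 other fits. Junos, which overlaps Jun on the opposite strand, had 12 counts over all libraries.

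Junb (chromosome 8, 84974484 to 84978718, minus strand) encodes a Jun protein that can restrain as well as support AP-1 activity. Its values were 141, 125 and 128 CPM in WT and 283, 145 and 216 CPM in ΔrsCBE. WT libraries were close together and ΔrsCBE replicate 2 was barely above them, with a Poisson interval of 122 to 171 CPM that covers all 3 WT values. Junb missed the threshold, with a log2 difference of 0.70 (SE 0.19, edgeR adjusted p = 0.0665). It passed in 6 of the 15 other fits, among them the fit without ΔrsCBE replicate 2, where the log2 fold change was 0.93 (edgeR adjusted p = 0.000147). Without ΔrsCBE replicate 1 it was 0.44 (edgeR adjusted p = 0.239). Prdx2 overlaps the Junb annotation on the opposite strand and had a log2 fold change of -0.53.

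Jund (chromosome 8, 70698949 to 70700616, plus strand), the slower Jun protein that is present in resting cells, gave 996, 895 and 874 CPM in WT and 1712, 1052 and 1321 CPM in ΔrsCBE. The groups did not overlap, and the gap between WT replicate 1 and ΔrsCBE replicate 2 was within their counting intervals of 919 to 1078 and 988 to 1119 CPM. Its log2 difference was 0.56 (SE 0.13, edgeR adjusted p = 0.0359). The call was lost in 6 of the 15 other fits. It was lost without any single WT library, where adjusted p lay between 0.0574 and 0.208, without ΔrsCBE replicate 1 (0.0623), without ΔrsCBE replicate 3 (0.144) and with library size as the only scaling (0.0596). Without ΔrsCBE replicate 1 the log2 fold change was 0.36.

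**Figure D2:**
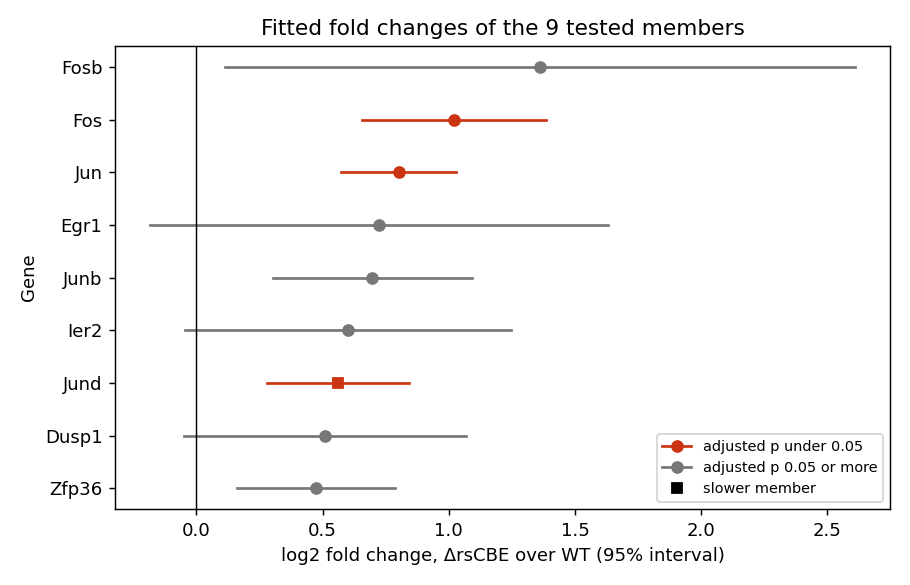
Log2 fold changes of ΔrsCBE over WT (points, with the square for the slower Jund) and their 95% intervals (lines) for the 9 tested members, in red where the adjusted p is under 0.05. Fos, Jun and Jund passed, and the intervals of Egr1, Ier2 and Dusp1 reach below 0.

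Egr1 and Ier2 are fast genes outside AP-1. Egr1 (chromosome 18, 34859823 to 34864984, plus strand) encodes a zinc finger transcription factor and is a common readout of MAP kinase signalling. It had 22.7, 22.1 and 23.8 CPM in WT and 59.3, 12.4 and 45.5 CPM in ΔrsCBE. ΔrsCBE replicates 1 and 3 were above all WT libraries, and ΔrsCBE replicate 2, with 12 counts and an interval of 6.41 to 21.7 CPM, was below all of them. That interval overlapped those of WT replicates 1 to 3, which were 12.4 to 38.1, 10.1 to 41.9 and 16.0 to 33.9 CPM. The log2 difference of Egr1, 0.72 (SE 0.43, edgeR adjusted p = 0.62), did not pass. Without ΔrsCBE replicate 2 it was 1.18 (edgeR adjusted p = 0.0168), and without ΔrsCBE replicate 1 it was 0.27 (edgeR adjusted p = 0.872), so the value rests on which of these libraries is kept.

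Ier2 (chromosome 8, 84661331 to 84662852, minus strand), which encodes a small nuclear protein of the immediate early response, had 24.3, 27.0 and 35.6 CPM in WT. In ΔrsCBE it had 71.4, 25.8 and 42.9 CPM, with ΔrsCBE replicate 2 inside the WT range. Its log2 difference was 0.60 (SE 0.31, edgeR adjusted p = 0.541). Without ΔrsCBE replicate 1 the log2 fold change was 0.15, and without ΔrsCBE replicate 2 it was 0.91, neither of them past the threshold (edgeR adjusted p = 0.916 and 0.094).

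The last members, Dusp1 and Zfp36, encode feedback inhibitors. Dusp1 (chromosome 17, 26505590 to 26562128, minus strand) is a phosphatase that switches off MAP kinases. Its levels of 69.8, 24.5 and 49.9 CPM in WT spread widely, and those in ΔrsCBE were 77.5, 48.6 and 90.9 CPM. The log2 fold change of 0.51 had a 95% interval from -0.05 to 1.07 (edgeR adjusted p = 0.551), and the gene passed in 0 of the 15 other fits. The value was 0.31 without WT replicate 2, 0.31 without ΔrsCBE replicate 3 and 0.78 without WT replicate 1. Ergic1 overlaps the Dusp1 annotation on the opposite strand and had 38 counts in all.

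Zfp36 (chromosome 7, 28376784 to 28380253, minus strand), which encodes tristetraprolin, the protein that destabilises AU-rich messages such as that of Fos, had 127, 152 and 160 CPM in WT. ΔrsCBE libraries had 182, 190 and 244 CPM. Groups did not overlap, and here ΔrsCBE replicate 1 rather than 2 was the lowest of its group. Its log2 difference of 0.47 (SE 0.15, edgeR adjusted p = 0.145) did not pass, nor did it in any of the 15 other fits.

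In 6 of the 9 tested members every ΔrsCBE library exceeded every WT library, a pattern that 7.23% of all tested genes showed (16.1% with either direction counted). The libraries of the ΔrsCBE group were not alike. ΔrsCBE replicate 1 had a median of 2.15 times the WT mean over the 9 members, replicate 3 had 1.89 times and replicate 2 had 1.14 times, against 0.994 to 1.00 times over all tested genes. Replicate 2 was the lowest ΔrsCBE library for 8 of the 9 members. Replicate 1, which had the Y-linked pattern, was the highest ΔrsCBE library for 6 of the 9 members. Replicate 3, which shares the Xist pattern with replicate 2, was the highest for 3. The part of sex in these differences was not tested. In the fit of ΔrsCBE replicate 1 alone against WT, 7 of the 9 members passed, with Dusp1 and Zfp36 as the exceptions, against 2.06% of all genes tested in that fit. The single library was assumed to vary like the WT libraries. The log2 differences there were 1.11 for Junb, 0.90 for Jund, 1.36 for Egr1, 1.23 for Ier2 and 0.30 for Zfp36.

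**Figure D3:**
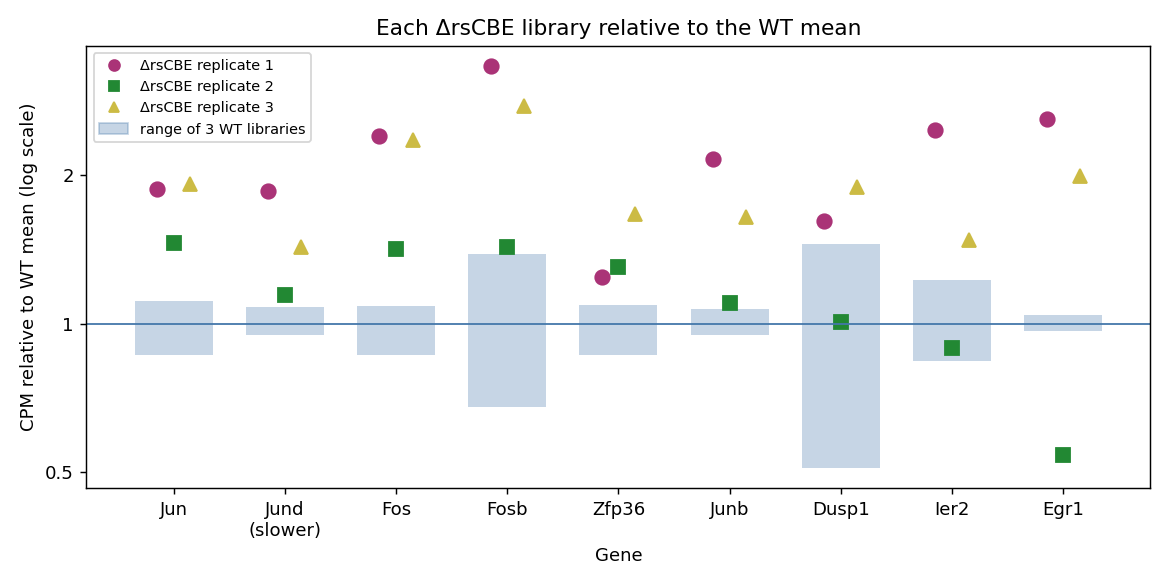
CPM of each ΔrsCBE library divided by the WT mean, on a log scale, for the 9 tested members, with the blue bands spanning the 3 WT libraries. Replicates 1 and 3 lie above the band for all 9 genes, and replicate 2 (squares) lies above it for 6, against 27.3%, 27.1% and 26.4% of all tested genes in replicates 1, 3 and 2.

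Markers of proliferation moved with the same libraries. Summed over 20 cell cycle genes, WT replicates 1 to 3 gave 6081, 6756 and 6330 CPM, while ΔrsCBE replicates 1 to 3 gave 2782, 4161 and 2613 CPM. The ΔrsCBE library closest to WT in the cell cycle sum was thus also the one closest to WT in the members. Of 18 tested genes on that list, 12 fell and 0 rose, against 1.49% of all tested genes called lower and 0.205% called higher. The part of proliferation in the members' difference was not tested. For comparison, the summed level of the 10 members was 3052, 2528 and 2730 CPM in WT and 5478, 3606 and 5010 CPM in ΔrsCBE.

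The fast members were also set relative to the slower Jund in the same library, which removes the effect of scaling. Jund itself was higher in ΔrsCBE, and differences between members were not tested. The ratio of Fos to Jund counts was 0.248, 0.219 and 0.271 in WT and 0.318, 0.305 and 0.404 in ΔrsCBE, with no overlap between the groups. Fosb to Jund was 0.163 ± 0.0471 in WT and 0.273 ± 0.0592 in ΔrsCBE (SD, n = 3), and ΔrsCBE replicate 2 (0.206) lay inside the WT range. Jun to Jund was 1.18 ± 0.116 and 1.43 ± 0.208, with ΔrsCBE replicate 1 (1.19) inside the WT range. For Junb, Egr1, Ier2, Dusp1 and Zfp36 the ratios to Jund also overlapped between the groups. The Fos to Jun ratio was 0.208 ± 0.00428 in WT (SD, n = 3), and in ΔrsCBE it was 0.267, 0.201 and 0.255. ΔrsCBE replicate 2 lay just below the lowest WT ratio, 0.203, although it was above WT in each of the genes. Fos had 80 counts in WT replicate 2 and 310 in ΔrsCBE replicate 2. The counting error of these ratios was not assessed, so this gap is not read as a difference.

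Per kilobase of the longest coding transcript, Jund stood highest in WT with 553 ± 39.1 CPM per kb, followed by Jun with 342 ± 42.9, Fos with 107 ± 12.7 and Junb with 72.7 ± 4.71 CPM per kb (SD, n = 3). These 4 genes did not overlap with their neighbours in the order. The rank of Jund depends on the annotation: with RefSeq gene lengths (2878 bases for Jund, against 1668 in GENCODE M21), a setting added after the values were seen, Jund had 320 ± 22.7 and Jun 343 ± 42.9 CPM per kb, with overlapping ranges. Zfp36, Fosb, Dusp1 and Ier2 followed with 52.4, 40.2, 24.1 and 19.0 CPM per kb, with overlapping ranges between neighbours, and Egr1 was lower at 5.10 ± 0.19 CPM per kb. In ΔrsCBE the order was the same except that Fosb, at 101 ± 39.2 CPM per kb, stood above Zfp36, at 73.5 ± 12.1, with overlapping ranges. There Jund, at 816 ± 199 CPM per kb, also overlapped with Jun, at 599 ± 85.9 CPM per kb, as did Fos with Junb and Junb with Fosb. With the RefSeq length Jund had 473 ± 115 CPM per kb in ΔrsCBE, below the mean of Jun.

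Other immediate early genes were followed with a list of 53 genes, of which 35 were tested. Of these, 3 rose (Klf2, Klf4 and Plk2) and 0 fell, against 0.205% and 1.49% of all tested genes. Log2 fold changes were above 0 in 27 of them, against 51.8% of all tested genes, with a median of 0.17. Klf4, a zinc finger factor linked to growth arrest in B cells, rose from 133 ± 18.7 to 253 ± 65.6 CPM (SD, n = 3), with a log2 difference of 0.91 (SE 0.17, edgeR adjusted p = 0.00366). Klf2, which keeps lymphocytes quiescent, rose from 248 ± 10.2 to 382 ± 46.4 CPM (log2 difference 0.62, edgeR adjusted p = 0.00533). Plk2, a polo-like kinase induced by serum and stress, had a log2 fold change of 0.78 just past the threshold (edgeR adjusted p = 0.048), and it lost the call without either of WT replicates 1 and 2 or ΔrsCBE replicates 1 and 3 (adjusted p from 0.0734 to 0.412). Plk2 also lost it with DESeq2's Wald test (0.0842), with a sex covariate (0.306) and in the fit of ΔrsCBE replicate 1 alone (0.0859). Klf4 lost it without WT replicate 3 (0.0538) and Klf2 without ΔrsCBE replicate 3 (0.0755) and with a sex covariate (0.271).

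Klf4 followed the libraries in the way of the members, with 297, 178 and 285 CPM in ΔrsCBE replicates 1 to 3. Klf2 did not, with 329, 402 and 416 CPM, so that replicate 1 was its lowest ΔrsCBE library. In the fit of replicate 1 alone against WT the log2 fold change of Klf2 was 0.40 (edgeR adjusted p = 0.27). The most abundant genes of the list, Btg1 and Rgs2, an antiproliferative factor and a regulator of G-protein signalling, had log2 fold changes of 0.24 and 0.41 and did not pass (edgeR adjusted p = 0.406 and 0.0519).

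Many classical immediate early genes were nearly silent in both genotypes. Of the 18 untested genes on that list, Egr2, Egr3, Nr4a1 and Myc, which were picked out after their values were seen, had 4, 13, 19 and 15 counts over all 6 libraries, and Egr4 had 0. The highest count of any of these in a single library was 7, so differences were not detectable at this depth. This contrasts with 7432 counts for Jun and 1714 for Fos over the same libraries.

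The wider bZIP family, to which AP-1 belongs, showed no called gene. Of 18 further family members such as Batf, Atf, Maf and Bach genes, 10 were tested, 0 passed in either direction with edgeR, 0 had an unadjusted p under 0.05, and the median log2 fold change was 0.09. Bach2, a repressor that competes at AP-1-like sites and guards pre-B cells, was abundant at 3242 ± 202 CPM in WT and 3377 ± 282 CPM in ΔrsCBE, which differ by 0.06 on the log2 scale. Atf4, a stress response factor, had a log2 fold change of 0.12. Atf3, a stress-induced partner of Jun, was below the filter with 55 counts in all, of which 17 and 20 were in ΔrsCBE replicates 1 and 3.

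Kinases and promoter-bound factors upstream of these genes did not pass either. Among 36 genes on the list, which include MAP kinases, Srf, its Elk partners and Creb1, 32 were tested, 0 passed with edgeR, and 1 was higher and 1 lower at an unadjusted p under 0.05. The median log2 fold change was -0.04. Map3k1, a kinase that leads to Jun phosphorylation, and Crebbp, a coactivator, were the most abundant, with log2 fold changes of 0.17 and 0.08. Transcript levels do not measure the activity of kinases.

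Genes for the decay of AU-rich messages gave 0 called of 24 tested with edgeR, with 2 higher and 3 lower at an unadjusted p under 0.05 and a median log2 fold change of -0.07. Its 2 most abundant members, Btg1 and Btg2, which recruit the deadenylase, had log2 fold changes of 0.24 and 0.28. They were the 2 higher genes, and both are also on the list of other immediate early genes. Heat shock genes, which together with the fast members are known to respond to tissue handling, gave 0 called of 10 tested, with 1 gene higher at an unadjusted p under 0.05 and a median of 0.19. Their summed level was 2247, 2396 and 1969 CPM in WT and 2052, 2577 and 2229 CPM in ΔrsCBE. Replicate 2 had the highest heat shock sum of the ΔrsCBE libraries and the lowest level of most fast members. Much of this sum came from Hsp90ab1 and Hspa5, with means of 1171 and 488 CPM over all libraries. The 5 untested genes of the list, Hspa1a, Hspa1b, Hspb1, Hspe1 and Bag3, had 7, 10, 1, 34 and 2 counts in all. The sum therefore says little about those 5 genes. The part of handling in the members' difference was not tested. DESeq2's Wald test likewise called 0 genes of the bZIP, upstream, decay and heat shock lists. Hsp90ab1 and Hspa5, the most abundant of the tested heat shock genes, had log2 fold changes of -0.03 and -0.004. Their signs depend on the setting, Hspa5 turning positive with library size as the only scaling.

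**Figure D4:**
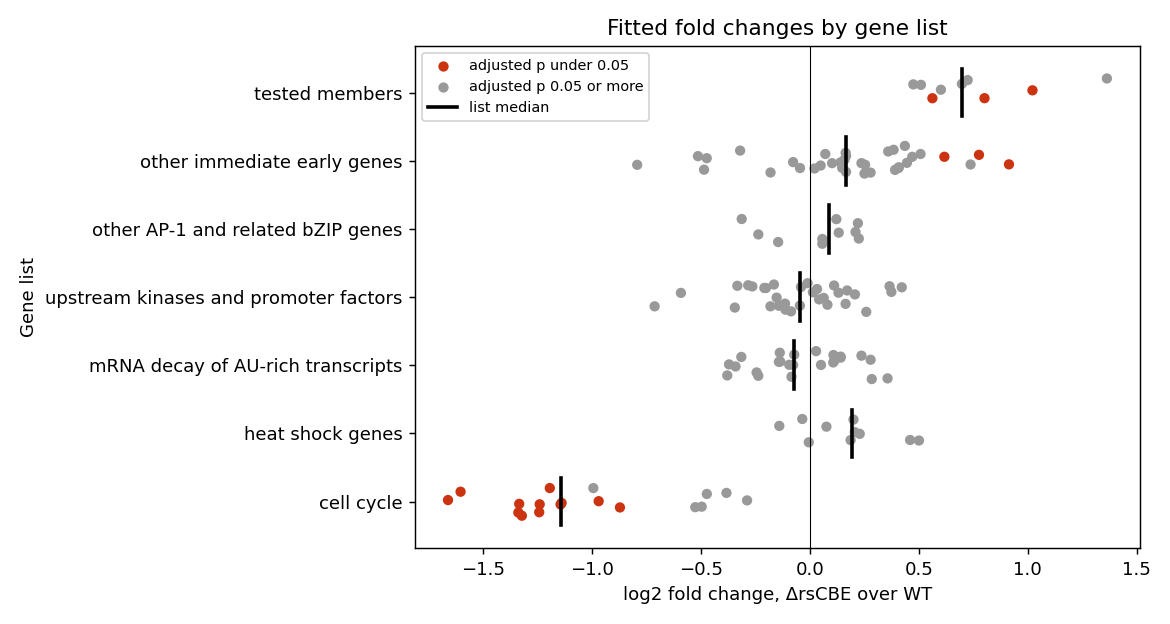
Log2 fold changes of ΔrsCBE over WT for every tested gene of 7 lists, in red where the adjusted p is under 0.05, with a black line at each list's median. The members have a median of 0.70, the other immediate early genes 0.17 and the cell cycle genes -1.14.

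The genes whose log2 CPM followed the mean profile of the members most closely over the 6 libraries, among 3862 genes with a mean of at least 50 CPM, were Tet3, Odc1, Klf4, Adgrg1 and Kdm6b, with Pearson r from 0.976 to 0.997. These values describe 6 points that share libraries and depth, and the genes were selected for the highest r. Klf4 was the one of the 5 past the threshold. Kdm6b, a histone demethylase, differed by 0.67 on the log2 scale (edgeR adjusted p = 0.0522), and Odc1, the first enzyme of polyamine synthesis, 0.49 (edgeR adjusted p = 0.426). Tet3, a dioxygenase that acts on methylated cytosine, had a log2 fold change of 0.16, and the adhesion receptor Adgrg1 had 0.55. Within the members the 36 pairwise correlations over libraries ran from 0.384 (Egr1 with Zfp36) to 0.991 (Junb with Jund), with a median of 0.777.

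Genes within 20 kb of the members were examined after the values had been seen, since 3 members lie on chromosome 8 and some are close to other genes. Of 7 neighbours tested 1 passed, Iqcn, against 1.69% of all tested genes in either direction. This gene starts 704 bases beyond the end of Jund on the same strand in RefSeq GRCm38.p6 and 2841 bases beyond it in GENCODE M21. Iqcn had 56.8, 58.9 and 65.7 CPM in WT and 123, 143 and 115 CPM in ΔrsCBE (log2 difference 1.05, edgeR adjusted p = 0.00101). Its profile over libraries differed from that of Jund, as ΔrsCBE replicate 2 was the highest for Iqcn and the lowest for Jund. Of the other neighbours, Nacc1 beside Ier2 had a log2 fold change of -0.51 and Plekhg2 beside Zfp36 one of -0.02, and neither passed.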

How the data were processed

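Total RNA was depleted of ribosomal RNA and made into stranded libraries, per the labels' protocols. The submitters' processing notes name Trim Galore 0.6.10, STAR 2.7.11, HTSeq and DESeq2 and the build mm10. The annotation and the strand setting are not given in the sources used here. The deposited table holds raw whole-number counts per gene symbol, with 1 column per library.

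Genes were kept by filterByExpr (minimum count 10) and scaled by TMM. Genotype was tested with edgeR 4.0.16 (glmQLFit, robust, and glmQLFTest) in R 4.3.3 over all 7792 genes, with Benjamini-Hochberg adjustment and a threshold of 0.05. Log2 CPM used a prior count of 2. Intervals of counts are exact Poisson at the 95% level, and they and the floor of 3 counts cover counting error only. On data simulated for this comparison (7898 genes tested) 75.3% of 2-fold and 28.6% of 1.5-fold changes were recovered, and 8 unchanged genes were called. Every simulated gene had the same spread between libraries, a coefficient of variation of 0.117 beyond counting error. These rates therefore do not cover members that varied more, such as Fosb, Egr1 and Ier2.

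All members are named, and of each gene list (AP-1 relatives, immediate early, upstream, heat shock and decay genes) those past the threshold and the 2 most abundant; also the 5 genes most like the members. The members and lists were chosen with earlier results of these data known. Replicate numbers were not used to pair the libraries in the reported fit.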

Additional observations from a re-analysis of the deposited data

How the results depend on the processing

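The 15 other fits and a looser threshold were compared with the reported fit. None of these reversed a member, and of the results for single members 117 stayed on the same side of the threshold, 12 gained and 6 lost a call, the losses all being of Jund. The 3 called members became 7 without the ΔrsCBE libraries of the Xist pattern (174 of 8446 genes called), 5 with the replicate block (136 of 7792 genes; same-numbered libraries correlated by only 0.00908 to 0.0197, so the numbers give no pairing), and 2 to 6 when single libraries were left out, the 6 without ΔrsCBE replicate 2 (187 of 8115 genes). The cause was not tested. The 132 genes past the threshold became 59 to 187 when single libraries were left out, 59 of them without WT replicate 3 and 59 without ΔrsCBE replicate 3. With DESeq2's Wald test 92 genes (1.18%) and 3 members passed. With a sex covariate, which leaves ΔrsCBE replicate 1 to set the genotype difference, 87 genes and 4 members passed. Sign changes among other named genes were those of Crebbp (-0.0319 with the sex covariate and -0.0299 without the Xist-pattern libraries), Hspa5 (0.0055 with library size alone, 0.0081 without a filter, 0.017 when genes needed 1 CPM or more in 3 libraries, 0.082 with the sex covariate, 0.083 without the Xist-pattern libraries, and -0.048 to 0.032 without single libraries) and Hsp90ab1 (-0.17 to 0.065 without single libraries). Depth limits Egr1, Ier2 and Dusp1, whose counts per library were as low as 9, 11 and 10, and Fosl2.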
